A study of Bos taurus with 3 samples.

Results

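Cell cycle genes were examined in bovine retina, a tissue made mostly of neurons that no longer divide. The members were chosen by symbol: cyclin-dependent kinases and their inhibitors, numbered cyclins, the MCM, ORC, E2F, CDC, BUB, AURK and PLK families, the retinoblastoma gene RB1 with RBL1 and RBL2, and the proliferation markers MKI67, TOP2A and PCNA. The rule matched 108 of the 13574 genes in the table. MKI67 and TOP2A were not analysed here, and the symbol MKI67IP, which the rule also matches, is a synonym of NIFK, another gene. The samples are 3 libraries of bovine retina, which form 1 group: cattle of mixed strain, retinas taken between 7 and 10 in the morning, with no treatment, age or second tissue in the labels. Pooled total RNA went into each library, and nothing says that the pools held separate animals, so each SD below measures the spread of these libraries only.

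A cell that divides first commits in G1, when D-type cyclins with CDK4 or CDK6 phosphorylate the RB family and release E2F factors. E2F factors switch on the genes that license and copy DNA, and cyclins A and B with CDK1 then drive mitosis, which the anaphase promoting complex ends. Neurons and photoreceptors leave this cycle for good, and Müller glia of mammals rest without dividing, but some relatives of the cell cycle kinases work mostly outside it. CDK5 with its activator p35 shapes neurons and synapses, and CDK7, CDK9, CDK12 and CDK13 phosphorylate RNA polymerase II. No dividing tissue was among the samples analysed here, so the contrast is between genes of the 2 kinds within the same libraries.

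Values are FPKM, fragments per kilobase of gene length at a common library depth, so that levels of different genes can be set side by side. The reads behind them could be recovered, and they gave a depth of 36656987 reads for library 1, 39011741 for library 2 and 49102476 for library 3. For a gene of 1 kb, 3 reads stand for 0.0818, 0.0769 and 0.0611 FPKM. Photoreceptor markers were present as the label retina implies: all 14 rod and cone genes had a mean above 10 FPKM, with a median of 573 FPKM. All 10 Müller glia genes were detected, with a median of 197 FPKM, and 7 of 8 measured ganglion cell genes, with a median of 76.4 FPKM. Pearson correlations of log2(FPKM + 1) between libraries lay between 0.974 and 0.983 across 9599 genes, which are not independent replicates. XIST, which is transcribed from the silenced X chromosome, had 3987, 3 and 3628 reads, so library 2 stood apart from the other two. In tissue RNA, fewer cells with a transcript and less of it per cell cannot be told apart.

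As a body, the members were not silent. An average of 1 FPKM or more, the level called detected here, was reached by 88 of 108 members or 81.5%, against 70.7% of all 13574 genes. At least 10 FPKM was reached by 39 members or 36.1%, against 38.4% of all genes. The median member had 6.35 FPKM and the median gene 5.67 FPKM. E2F8 was the single member at 0 in all 3 libraries, or 0.926%, against 7.86% of all genes.

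As whole classes, the members differed by what they do. The 14 kinases and cyclins with known work outside division, which are the neuronal and PCTAIRE kinases and those of transcription and RNA processing, were all detected and had a median of 17.9 FPKM. Of the 34 measured proliferation genes, which license DNA, drive S phase or run mitosis, 22 or 64.7% were detected, against 70.7% of all genes. Their median was 2.32 FPKM. Lists within the classes did not all follow this order. The 5 neuronal and PCTAIRE kinases had a median of 41.4 FPKM, but the 9 genes of transcription and RNA processing had 5.57 FPKM. That was below the 6.79 FPKM of the 16 genes of licensing and origin firing, called licensing genes here, which are in the proliferation class. It was also near the 5.67 FPKM of all genes. Library medians were 20.0, 17.0 and 16.5 FPKM for the kinases and cyclins outside division, and 2.64, 1.99 and 2.13 FPKM for the proliferation genes. On the scale of log2(FPKM + 1) the medians of the 2 classes differed by 2.43, 2.57 and 2.47 in libraries 1, 2 and 3. The SD of this gap over libraries was 0.072, which measures how alike the libraries are and not the spread of genes within a class. The members were chosen with earlier results known and there is no second group, so no test of the classes was made. Within the proliferation class the levels ran from 0.0356 FPKM for BUB1B to 31.5 FPKM for MCM7, and 12 of the 20 undetected members belonged to it. The class outside division ran from 1.89 to 74.5 FPKM, so the 2 classes overlapped.

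**Figure D1:**
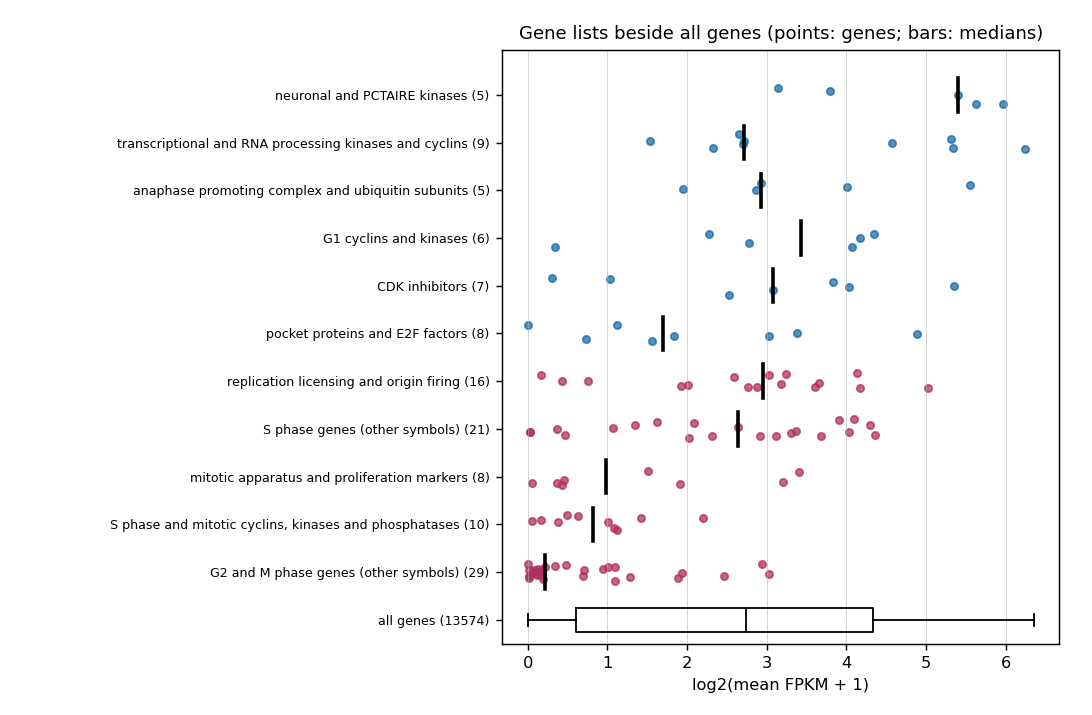
Each point is a gene, placed by log2(mean FPKM + 1) of the 3 libraries, in rows by role with the number of measured genes in brackets. Black bars are list medians, red rows are proliferation lists, blue rows are other roles, and the box at the bottom shows all 13574 genes with its median, quartiles and whiskers at the 5 and 95 percent points. The neuronal and PCTAIRE kinases stand highest, the licensing genes lie near the median of all genes, and the mitotic rows lie well to the left of it.

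The neuronal kinases were the highest role among the members, with a median of 41.4 FPKM over 5 genes. CDK5R1, which encodes the p35 activator of CDK5, had 64.2, 48.6 and 71.4 FPKM in libraries 1, 2 and 3, or 61.4 ± 11.7 (SD, n = 3). CDK5 itself, the kinase that needs p35 in place of a cyclin, had 41.3, 48.9 and 33.9 FPKM. The activator was lowest and the kinase highest in library 2, so that their order was reversed by a narrow margin there. CDK16, a PCTAIRE kinase, had 53.6, 47.3 and 44.2 FPKM, above 90.2% of all genes by its mean. Its relative CDK18 had 12.2, 13.0 and 13.4 FPKM, with little spread. CDK14, a cyclin Y partner that acts in WNT signalling, had 8.47, 6.43 and 8.50 FPKM. CCNY, the cyclin Y gene that also activates CDK16, lies outside the symbol rule and had 49.2 FPKM ± 2.56. CDK5R2, CDK15 and CDK17 were not analysed here.

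Kinases and cyclins of transcription and splicing spread over a wide range, with a median of 5.57 FPKM over 9 genes. CDK9, the kinase of the elongation factor P-TEFb, led them with 82.1, 77.2 and 64.3 FPKM, above 94.5% of all genes by its mean. CDC2L1, an older symbol of CDK11B, a kinase tied to splicing, had 41.1, 40.5 and 37.2 FPKM. The L-type cyclins, which bind CDK11, were high as well: CCNL2 had 45.1, 39.0 and 32.5 FPKM and CCNL1 had 27.9, 21.0 and 19.6 FPKM. CDK7, the kinase of the general factor TFIIH, had 5.57 FPKM ± 1.05, and CDK12 and CDK13, which phosphorylate the elongating polymerase, had 5.53 FPKM ± 0.878 and 5.30 FPKM ± 0.691. The Mediator kinase CDK19 had 4.01 FPKM ± 0.777, and CDK10 was lowest at 1.89 FPKM ± 0.183 (SD, n = 3 for each). CDK9 therefore stood 13.4-fold above CDK7 by their means, although its cyclin partners CCNT1 and CCNT2 had 7.27 FPKM ± 2.85 and 7.57 FPKM ± 0.748. Of 14 measured cyclins, CDKL kinases and partners with other symbols 11 were detected, or 78.6%, against 70.7% of all genes. Their median was 6.86 FPKM. CCNK, the partner of CDK12 and CDK13, was the highest of them at 60.3 FPKM ± 3.55, and CCNI, an atypical cyclin, had 48.1 FPKM ± 2.41. MNAT1, which assembles CDK7 with cyclin H, had 27.1 FPKM ± 5.40, and the cyclin H gene CCNH 6.45 FPKM ± 0.703.

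CDK20, a kinase known from work on primary cilia, had 45.6, 50.5 and 41.0 FPKM, above 89.4% of all genes by its mean. CCNG1, a cyclin induced by p53, had 4.03, 3.19 and 4.05 FPKM, and CCNB1IP1, which acts in meiotic crossing over, was below detection at 0.313 FPKM ± 0.108.

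The G1 machinery was present in part. CCND3 was the leading D-type cyclin with 17.8, 22.5 and 18.0 FPKM. CCND2 had 8.09, 3.97 and 5.54 FPKM, and CCND1 had 3.43, 3.53 and 4.64 FPKM. Cyclin D3 thus exceeded both other forms in each library. CCND2 exceeded CCND1 in each library, but their counting intervals overlapped in libraries 2 and 3 and were apart only in library 1. CDK4 had 17.1, 17.6 and 12.9 FPKM, while CDK6, the other partner of D cyclins, had 0.301, 0.226 and 0.270 FPKM from 20, 16 and 24 reads. On reads per kilobase, CDK4 was 56.8-fold above CDK6 in library 1, with a 95% exact binomial interval of 36.6 to 93.5. The ratio was 77.6 in library 2 and 47.7 in library 3, and these intervals, like the others below, cover counting error only. CDK3, a kinase of the G0 to G1 step, had 24.8, 13.9 and 12.5 FPKM, with library 1 well above the others. The models of CCND1 and CCND2 are short, at 1185 and 974 bases, and a model that lacks part of its transcript changes the FPKM.

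**Figure D2:**
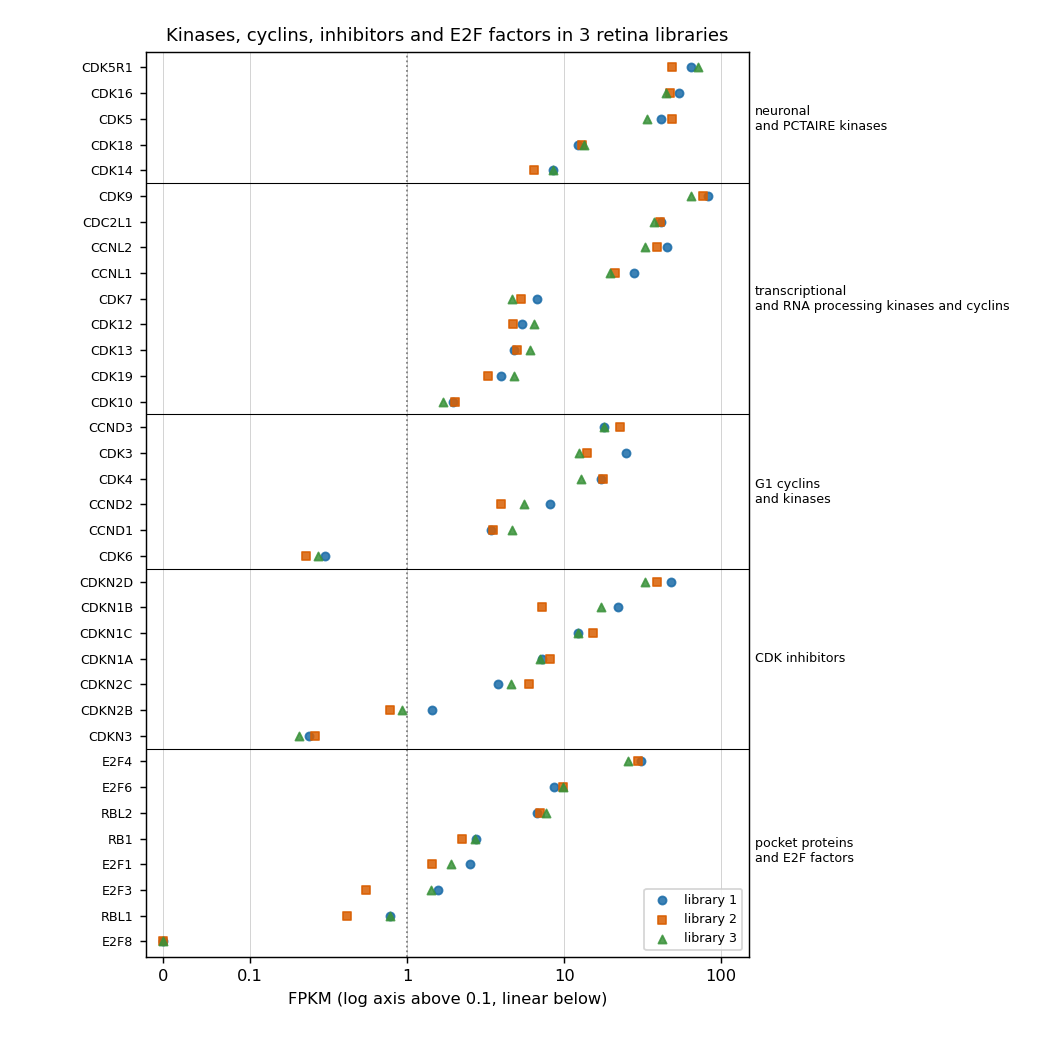
FPKM of 35 members by library, on an axis that is logarithmic above 0.1 and linear below it, with the dotted line at 1 FPKM. Blue circles are library 1, orange squares library 2 and green triangles library 3. CDK6, CDKN3, RBL1 and E2F8 stay left of the line in every library, and CDKN1B shows the widest gap, with library 2 at 7.19 FPKM.

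Genes of replication licensing, which marks origins in G1, and of origin firing were expressed at middle levels. Their list also holds PCNA and MCM8, described below. Of 16 measured members 13 were detected, or 81.3%, against 70.7% of all genes, with a median of 6.79 FPKM. The helicase subunits MCM7 and MCM4 were the highest of the list by their means. MCM7 had 34.6, 31.0 and 28.9 FPKM, MCM4 had 14.9, 19.6 and 16.5 FPKM and MCM5 had 9.65, 13.8 and 11.4 FPKM. MCM3 had 6.73, 9.35 and 8.13 FPKM, and MCM6, the lowest of the 5 measured helicase subunits, had 4.43, 5.34 and 5.31 FPKM. These proteins join in equal number, yet the transcript of MCM7 stood 6.27-fold above that of MCM6 by their means. MCM3, MCM4, MCM5 and MCM6 were each lowest in library 1, in which MCM7 was highest. The MCM7 gene hosts the microRNA genes MIR106B, MIR93 and MIR25. MCM8, which acts in recombination and overlaps TRMT6 in the ARS-UCD2.0 assembly, had 0.780, 0.371 and 0.936 FPKM, and MCM2, MCM9 and MCM10 were not analysed here.

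PCNA, the sliding clamp of DNA polymerases that repair also uses, had 19.8, 16.7 and 12.9 FPKM. The origin recognition complex was uneven. ORC6 had 13.5, 10.7 and 9.53 FPKM, ORC3 had 9.47, 7.37 and 8.49 FPKM and ORC4 had 7.49, 4.33 and 5.56 FPKM. ORC5 had 3.52, 2.82 and 2.74 FPKM and ORC2 had 2.96, 2.38 and 3.02 FPKM. ORC1, the subunit that comes and goes with the cell cycle, had 0.259, 0.453 and 0.325 FPKM, and the mean of ORC6 was 32.5-fold above it. CDC6, which loads the helicase together with ORC, was lowest of the list at 0.0872, 0.184 and 0.0977 FPKM, from 8, 18 and 12 reads. Factors that fire origins were above CDC6 and ORC1 and below ORC6 and ORC3 by their means: CDC45 had 7.50, 7.73 and 6.36 FPKM, and the kinase CDC7 had 7.46, 5.75 and 5.94 FPKM. The detected helicase genes and the near absent CDC6 and ORC1 thus belong to the same loading reaction.

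Cyclins and kinases of S phase and mitosis were low, with a median of 0.783 FPKM over 10 genes. Of these 5 were detected, or 50%, against 70.7% of all genes. CDK1, the mitotic kinase, had 0.675, 0.593 and 0.390 FPKM from 31, 29 and 24 reads. CCNB1, its cyclin partner, had 0.334, 0.332 and 0.2495 FPKM, and CCNB2 had 0.0544, 0 and 0.0677 FPKM from 3, 0 and 5 reads, near the limit that 3 reads set. CDK2, the kinase of S phase, had 1.61, 1.03 and 0.878 FPKM. Its partners of the E type had 1.03, 1.25 and 1.09 FPKM for CCNE1 and 1.89, 1.60 and 1.53 FPKM for CCNE2. CCNA2 was the highest of the list with 3.31, 3.62 and 3.90 FPKM. The CDC25 phosphatases, which switch on cyclin-dependent kinases, were lower in the order A, B, C: CDC25A had 1.30, 0.688 and 1.05 FPKM, CDC25B had 0.487, 0.423 and 0.309 FPKM and CDC25C had 0.113, 0.127 and 0.135 FPKM. In the ARS-UCD2.0 assembly CCNA2 overlaps EXOSC9, at 15.9 FPKM, CCNE2 overlaps INTS8, at 37.7 FPKM, and CDC25C overlaps FAM53C, at 8.80 FPKM. The sources used here do not say whether strand was used, so reads of these partners may count toward the low values.

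The mitotic apparatus was split, with 4 of 8 measured genes detected, or 50%, against 70.7% of all genes. The median was 1.11 FPKM. BUB1B, the spindle checkpoint kinase BUBR1, had 0.0587, 0.0207 and 0.0274 FPKM from 8, 3 and 5 reads. BUB1 had 0.380, 0.364 and 0.316 FPKM, CDC20, the mitotic activator of the anaphase promoting complex, had 0.368, 0.332 and 0.183 FPKM, and AURKB, the kinase of the chromosomal passenger complex, had 0.378, 0.416 and 0.311 FPKM. These 4 checkpoint and segregation genes stayed under 0.5 FPKM in every library. PLK1, a kinase central to mitosis, did not follow them, with 7.96, 9.07 and 7.60 FPKM from 633, 768 and 810 reads. AURKC, a form of Aurora kinase known mostly from germ cells, was above it on average, with 12.4, 9.09 and 7.25 FPKM. AURKA, which acts at centrosomes and at the base of cilia, had 2.99, 2.95 and 2.40 FPKM, and PLK4, the kinase of centriole duplication, had 2.33, 1.37 and 1.86 FPKM. No gene of the table overlaps PLK1, AURKC, AURKA or PLK4 in ARS-UCD2.0.

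**Figure D3:**
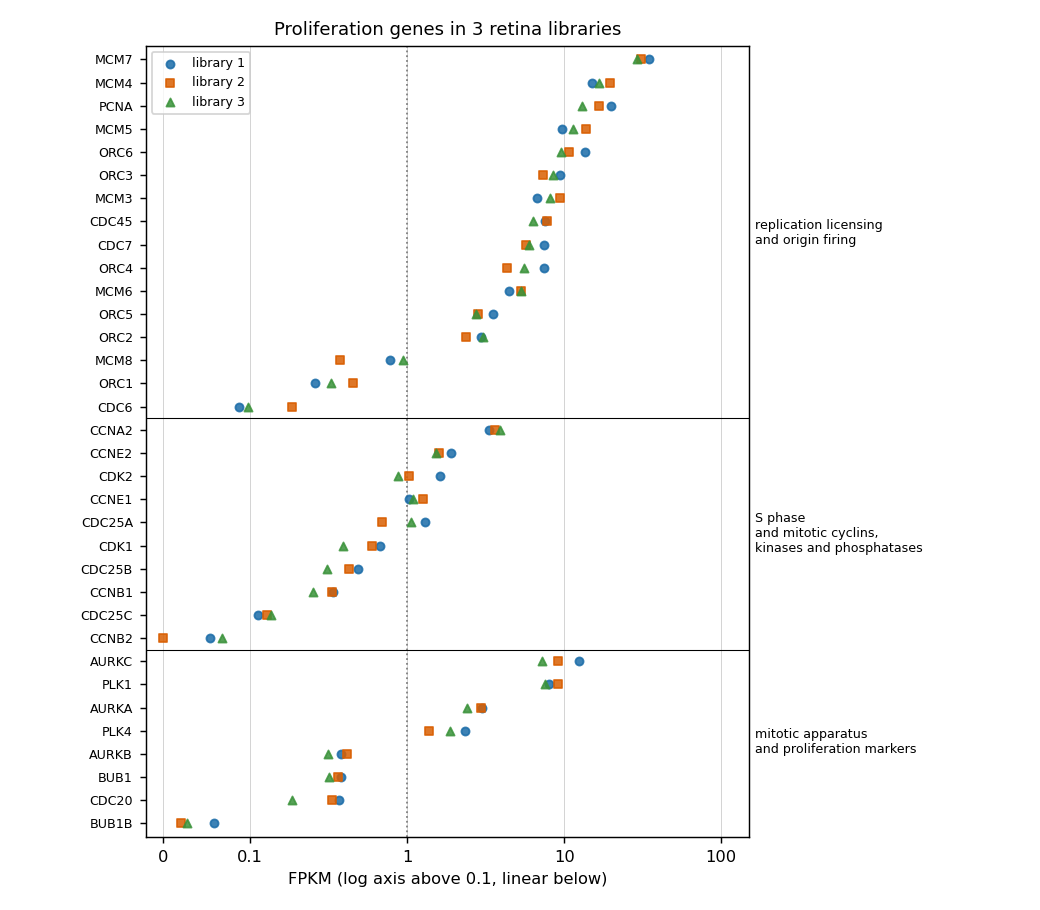
FPKM of the 34 measured proliferation genes by library, on an axis that is logarithmic above 0.1 and linear below it, with the dotted line at 1 FPKM. Circles are library 1, squares library 2 and triangles library 3. Licensing genes reach from 0.0872 to 34.6 FPKM, and PLK1 and AURKC stand apart from the other mitotic genes, which include BUB1B at 0.0356 FPKM on average.

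Lists of further cell cycle genes with other symbols, which the rule did not use, differed by phase. Of 21 measured S phase genes 17 were detected, or 81.0%, against 70.7% of all genes. Their median of 5.23 FPKM was near the 5.67 FPKM of all genes. The nuclease FEN1 had 19.6 FPKM ± 1.58, the thymidylate synthase TYMS 18.7 FPKM ± 2.61 and the ribonucleotide reductase subunit RRM1 16.1 FPKM ± 1.82. RRM2, the subunit made for S phase, had 0.0208 FPKM ± 0.0106, and UHRF1, which guides maintenance methylation after replication, had 0.0249 FPKM ± 0.00980 (SD, n = 3 for each). GMNN, the geminin gene, whose product blocks licensing from S phase on, had 11.9 FPKM ± 2.84. Of 29 measured genes of G2 and M phase 9 were detected, or 31.0%, against 70.7% of all genes, and their median was 0.162 FPKM. CENPF, TTK, KIF2C, CENPA and NDC80, all of the kinetochore and spindle, had means between 0.00401 and 0.0259 FPKM. The highest was MYBL2, a factor that drives mitotic genes, with 9.86, 5.19 and 6.49 FPKM, followed by CKS1B, a small subunit of cyclin-dependent kinases, with 9.87, 5.11 and 4.98 FPKM, and SMC4, a condensin subunit, with 4.51 FPKM ± 0.324.

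Markers of cell types other than neurons and Müller glia were also read beside these values. Those of microglia and leukocytes had summed levels of 16.7, 18.0 and 13.8 FPKM over 12 genes. Of these 6 were detected, or 50%, against 70.7% of all genes. The 6 detected were C1QB, CD68, CSF1R, CX3CR1, AIF1 and C1QA, with means from 3.30 FPKM for C1QB to 1.22 FPKM for C1QA. PTPRC and CD3E, which define leukocytes and T cells, were the lowest of the list, with 0.233 FPKM and 0.105 FPKM on average. Endothelial and pericyte markers summed to 130, 123 and 115 FPKM over 12 genes, with 11 or 91.7% detected. Pigment epithelium markers summed to 72.2, 49.3 and 32.0 FPKM over 10 genes, with 8 or 80% detected. RDH5 and TTR led the pigment epithelium list at 21.5 FPKM and 15.6 FPKM on average, while its median was 1.92 FPKM. No marker of these 3 lists was at 0 in all libraries, but TYR of the pigment epithelium had only 0, 0 and 1 reads. The part of these cells in the proliferation values was not tested.

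Inhibitors of cyclin-dependent kinases were mostly present, with 6 of 7 measured genes detected, or 85.7%, against 70.7% of all genes. Their median was 7.47 FPKM. CDKN2D, the INK4 inhibitor p19 of CDK4 and CDK6, led with 47.6, 39.0 and 32.7 FPKM, above 87.7% of all genes by its mean. CDKN1C, the CIP/KIP inhibitor p57, had 12.3, 15.3 and 12.2 FPKM. CDKN1A, the p53 target p21, had 7.25, 8.13 and 7.02 FPKM. CDKN2C, the INK4 inhibitor p18, had 3.78, 5.95 and 4.56 FPKM, and CDKN2B, the inhibitor p15, had 1.44, 0.777 and 0.930 FPKM. CDKN3, a phosphatase of CDK2 whose gene is induced in dividing cells, had 0.236, 0.259 and 0.205 FPKM from 6, 7 and 7 reads. CDKN2A was not analysed here.

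CDKN1B, the inhibitor p27 that holds cells out of the cycle, had 22.0, 7.19 and 17.2 FPKM. Library 2 lay far below the other two, by 3.06-fold against library 1, and the counting intervals of 21.0 to 23.0 FPKM in library 1 and 6.67 to 7.75 FPKM in library 2 were far apart. CDKN1B was the only one of 88 detected members whose FPKM + 1 differed at least 2-fold between any pair of libraries, or 1.14%, against 3.27% of the 9599 genes at that level. With 0.1 in place of 1 as the added constant CCND2 and E2F3 joined it, both also lowest in library 2. Between libraries 1 and 3 alone no member reached 2-fold on the scale of FPKM + 1, against 187 of the 9599 genes. Of all these genes 187 also differed 2-fold between libraries 1 and 2, and 57 between libraries 2 and 3. The SD of log2(FPKM + 1) of CDKN1B was 0.78, against a median of 0.18 over detected members and of 0.19 over all detected genes. The next largest were those of CDK3 at 0.50, CCND2 at 0.44, CDKN2AIPNL at 0.43 and E2F3 at 0.40. CDKN2AIPNL had 61.8, 48.9 and 33.7 FPKM. The summed level of 10 Müller glia markers was 2008, 2570 and 2141 FPKM. Its members did not move as one: CLU had 383, 767 and 528 FPKM, while GLUL had 481, 354 and 463 FPKM, and SLC1A3 and KCNJ10 were also lowest in library 2. XIST was near 0 there as well, and the part of these differences in the CDKN1B values was not tested.

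**Figure D4:**
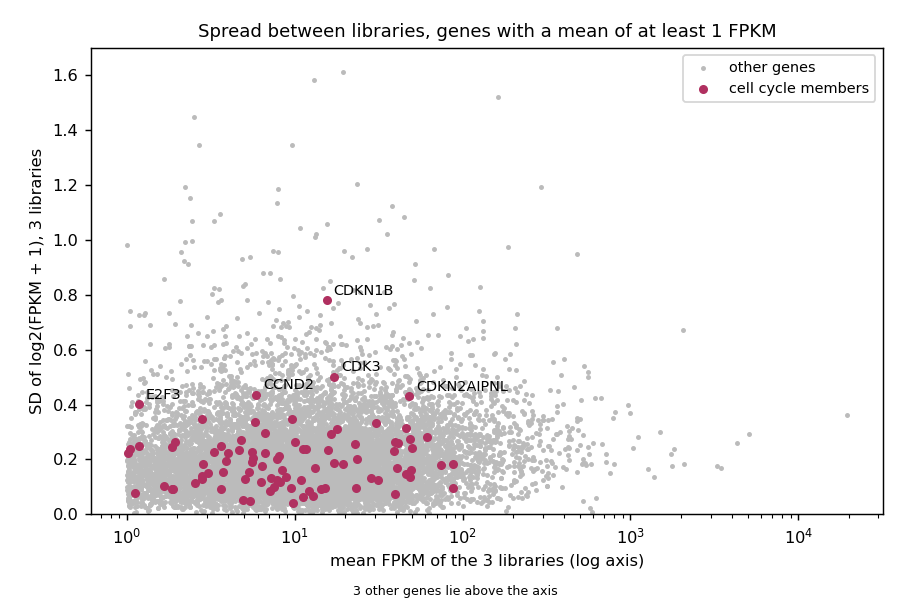
SD of log2(FPKM + 1) over the 3 libraries against mean FPKM on a log axis, for genes that average 1 FPKM or more, with members in red and other genes in grey. Most members lie within the grey cloud, and CDKN1B stands highest among them at 0.78.

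The detected members ranked the libraries much as all detected genes did. Of 88 detected members 26 were lowest in library 2, or 29.5%, against 32.1% of all detected genes. Library 3 held the lowest value for 41 of them, or 46.6%, against 43.3% of all detected genes, and library 1 the highest for 43, or 48.9%, against 45.3%. Of 22 detected proliferation genes 13 were highest in library 1, or 59.1%. Library 3 was highest for 2 of them, or 9.09%, against 25.7% of all detected genes.

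RB family and E2F genes differed by form. E2F4, which represses cell cycle genes in resting cells, had 30.7, 29.6 and 25.6 FPKM, and E2F6, a repressor that acts without RB proteins, had 8.67, 9.86 and 9.86 FPKM. The activators were lower: E2F1 had 2.50, 1.43 and 1.90 FPKM and E2F3 had 1.57, 0.543 and 1.42 FPKM. E2F8 had no read in any library, which allows up to 0.0315, 0.0296 and 0.0235 FPKM by the limit of 3 reads. RBL2, the pocket protein p130 typical of resting cells, had 6.74, 6.99 and 7.67 FPKM. RB1 had 2.73, 2.24 and 2.70 FPKM, and RBL1, the pocket protein p107 of cycling cells, had 0.775, 0.411 and 0.782 FPKM. RBL2 overlaps AKTIP, at 18.0 FPKM, and RB1 overlaps LPAR6, at 0.507 FPKM, in ARS-UCD2.0. Genes listed for the DREAM repressor complex and as partners of E2F factors were detected at 7 of 7 measured, against 70.7% of all genes. Their median was 25.6 FPKM. Among them TFDP1, the dimer partner of E2F factors, had 219, 162 and 142 FPKM, the histone-binding protein gene RBBP7 had 37.1 FPKM ± 3.46 and LIN37 had 26.9 FPKM ± 5.54. LIN9 of this list was not analysed here.

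The measured genes of the anaphase promoting complex, which in neurons works with FZR1 after mitosis has ended, were all detected, at uneven levels. CDC16 had 15.2, 16.0 and 13.9 FPKM, CDC26 had 8.50, 5.99 and 5.41 FPKM, CDC23 had 7.01, 5.85 and 6.10 FPKM and CDC27, which overlaps MYL4 in ARS-UCD2.0, had 3.02, 2.32 and 3.22 FPKM. All 9 measured genes of the complex with other symbols, FZR1 included, were detected, against 70.7% of all genes, with a median of 26.8 FPKM. ANAPC15, ANAPC11 and ANAPC16 led them at 54.5 FPKM ± 8.45, 47.5 FPKM ± 7.62 and 40.0 FPKM ± 9.19. The lowest of these 9 were ANAPC10 at 3.43 FPKM ± 0.836 and ANAPC13 at 5.75 FPKM ± 2.68. FZR1 had 34.0, 32.6 and 35.5 FPKM, far above its mitotic counterpart CDC20 at 0.294 FPKM. CDC34, a ubiquitin conjugating enzyme of SCF ligases, had 58.1, 42.4 and 37.9 FPKM. Together with CDC16, CDC23, CDC26 and CDC27 it forms a list with a median of 6.63 FPKM, against 5.67 FPKM for all genes. BUB3, a checkpoint protein that also serves in splicing, had 44.6, 42.6 and 35.5 FPKM. CDK5RAP2, a centrosome protein, had 7.83 FPKM ± 0.753, the stress kinases PLK3 and PLK2 had 3.65 FPKM ± 0.835 and 3.31 FPKM ± 0.684, and the phosphatase CDC14B had 2.82 FPKM ± 0.855.

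Pairs of related members with different roles were then compared within each library, the form with roles outside division or in resting cells over the other where roles differ so. Of 18 pairs 16 had the first member higher in all 3 libraries, with a median log2 ratio of 2.31 over the pairs on the scale of FPKM + 1. Among the 7 pairs with both means at 1 FPKM or more, 5 did. The pairs were chosen with earlier results of these data known, so these counts describe the chosen pairs and test nothing. The exact two-sided sign-flip test over 3 libraries gave p = 0.25 at best, the smallest it can give, so no pair could pass 0.05. CDK9 stood highest over CDK1, at log2 5.60 ± 0.042 (SD, n = 3), and CDK5 stood at log2 4.76 ± 0.18 over CDK1. On reads per kilobase CDK5 was 61.3-fold above CDK1 in library 1, 82.4-fold in library 2 and 86.9-fold in library 3, with 95% exact intervals from 43.0 at the lowest to 136 at the highest. BUB3 was 117-fold, 117-fold and 112-fold above BUB1. CDK16 over CDK2 had log2 4.51 ± 0.11, CCNL1 over CCNB1 4.18 ± 0.23 and E2F4 over E2F1 3.34 ± 0.27. CDKN2D over CDKN2C had 2.82 ± 0.45, RBL2 over RBL1 2.30 ± 0.19 and ORC4 over ORC1 2.31 ± 0.44.

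Other pairs were closer. CCNG1 over CCNB2 had log2 2.19 ± 0.11, a value held down by the added constant because CCNB2 is near 0. CDC27 over CDC20 had 1.57 ± 0.26, AURKA over AURKB 1.46 ± 0.081 and CCND1 over CCNE1 1.19 ± 0.22. The smallest positive ratios were those of CDC25B over CDC25C, at 0.32 ± 0.11, and of CCND2 over CCNA2, at 0.53 ± 0.50, where library 2 had 0.11. PLK2, a kinase of synaptic scaling in neurons, was below PLK1 in every library, at log2 -1.10 ± 0.31, with reads per kilobase at 0.510, 0.299 and 0.415 of those of PLK1. CDKN1B over CDKN1A changed sign between libraries, with log2 values of 1.48, -0.16 and 1.18, since CDKN1B was low in library 2 and CDKN1A was even, and their mean was 0.83 over the 3 libraries and 1.33 without library 2.

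**Figure D5:**
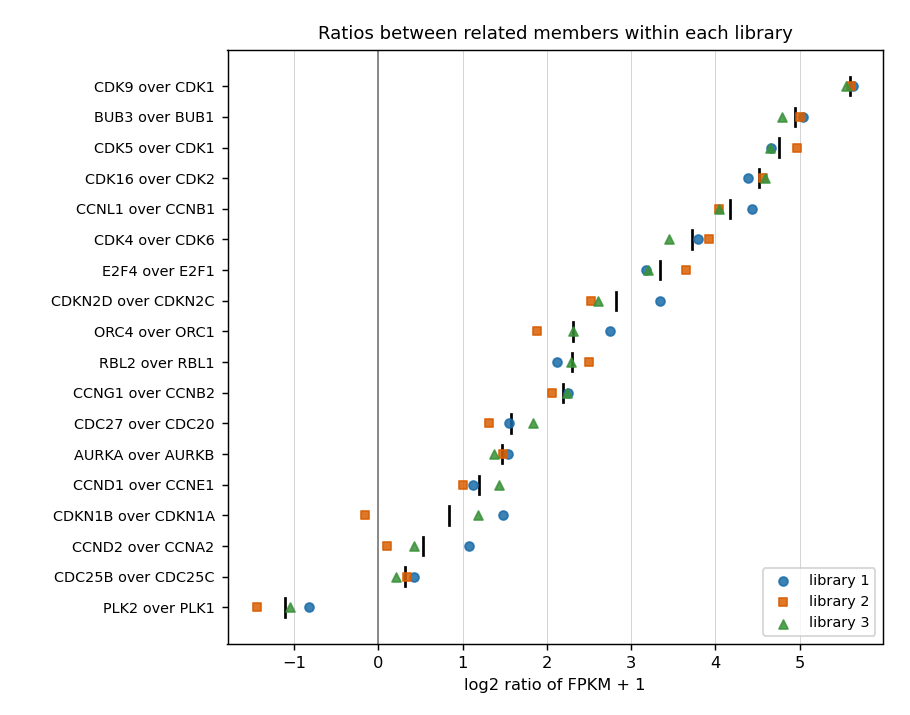
log2 ratio of FPKM + 1 for 18 pairs of members within each library, with circles for library 1, squares for library 2, triangles for library 3 and a black bar at the mean. All points lie right of 0 but those of PLK2 over PLK1 in every library and of CDKN1B over CDKN1A in library 2, and CDK9 over CDK1 is widest at 5.60.

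The symbol rule also caught 26 genes whose main work lies elsewhere, and they hold the highest values of all members. Their median was 11.0 FPKM, and 23 were detected, or 88.5%, against 70.7% of all genes. CDK2AP2, a subunit of a chromatin remodelling complex, had 87.2, 99.6 and 76.8 FPKM. CDC37, the HSP90 partner that folds kinases, had 91.4, 89.1 and 80.6 FPKM. AURKAIP1, a protein of the mitochondrial ribosome, had 49.3, 58.4 and 41.5 FPKM. The tail held CDC42EP2 and CDC42BPG, effectors of the GTPase CDC42, at 0.810 FPKM and 0.894 FPKM, and CDC20B, with 0, 1 and 0 reads. CDC42 itself had 22.7, 15.8 and 15.0 FPKM. PLK1S1 is an older symbol of KIZ, a centrosome gene, and had 4.68, 5.11 and 4.85 FPKM, while MKI67IP had 7.54, 7.15 and 5.38 FPKM.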

How the data were processed

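Each library was made from the poly(A) fraction of pooled total RNA, random-primed, copied to cDNA and sheared to about 200 bp, per the labels' protocols. CASAVA 1.8.1, GSNAP and HTSeq are named in the submitters' processing notes. For settings, genome build, annotation and strand, the sources used here give nothing. Per the file headers, the authors deposited FPKM for each gene and library, with a gene length per symbol.

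FPKM times length gave whole reads, within 0.1, for 100% of values up to 2000 reads in each library, and these reads were used for depth, for 95% exact Poisson and binomial intervals and for the floor of 3 reads. These cover counting error only, since reads are not independent molecules. Of the reads 59.1%, 61.0% and 57.6% lay on listed genes. Levels were compared on log2(FPKM + 1). With 1 group, no count model and no contrast were fitted. The read recovery and intervals were tested on simulated data with Python 3.11.15, numpy 2.4.6, pandas 2.3.3 and scipy 1.17.1.

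The members, role lists and pairs were chosen with earlier results of these data known. Named genes are both genes of each pair, the 3 highest of each list, all proliferation members and the 5 members with the largest SD. CDC2L1, MKI67IP and PLK1S1 were assigned to lists after the table was read. Other named genes were chosen after their values were seen. Of the 108 symbols 105 matched ARS-UCD2.0 exactly and 3 by synonym. Of these 16 overlap another gene of the table, and that assembly was used only for names and overlaps. Reads that match several places may be split or lost, so genes with near-identical copies are uncertain.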

Additional observations from a re-analysis of the deposited data

How the results depend on the processing

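The log2 difference between the class medians, kinases and cyclins outside division minus proliferation genes, was 2.47 and stayed positive in every alternative run. It was 2.86 with a pseudocount of 0.1, 1.36 among members that average 1 FPKM or more, 2.23 with the mean over members, 2.27 without members that overlap another gene and 3.36 without the licensing list. The proliferation median itself, 1.72, was 1.25, 2.82, 1.92 and 0.822 with that pseudocount, that minimum, without overlapping members and without the licensing list. The last pair of alternatives was chosen after seeing the data. Of 18 pairs 16 had the first member higher in every library, and 5 of the 7 pairs with both means at 1 FPKM or more. The count of members at least 2-fold apart between libraries was 1, and was 3 with a pseudocount of 0.1, against 5.56% of all detected genes. Without replicate 2 it was 0, against 187 of the 9599 detected genes. It ranged from 0 to 1 when each library was left out. The rarer members rest on few reads, so differences between libraries in BUB1B, CCNB2, CDC6 and CDC25C were not detectable at this depth. The other 55 values for classes, counts and pair totals moved by less than the spread or 1.5 times, and all 108 alternative ratios of single pairs had the sign of the ratio reported. Scaling to equal sums moved the median gene by 0.095 at most on the log2 scale. No paired analysis was possible because the libraries form 1 group.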
